A study of Mus musculus with 12 samples.

Results

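Rev-Erbα is a nuclear receptor that represses genes of the circadian clock and of metabolism, and its binding to chromatin of brown adipose tissue was mapped by ChIP-seq. Of the 11227 binding sites listed at 4 °C, 9557 overlapped none of the 2183 sites listed at 29 °C. The sites described here are the 1546 of these 9557 (16.2%) at which the HA-RevErbα signal at 29 °C was no higher than the signal of untagged wild-type (WT) mice at 29 °C. They are called WT-level sites below. They are compared with the other 8011 sites listed at 4 °C only and, where useful, with the 1670 sites shared by both lists (at least 1 bp of overlap).

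The tested mice were HA-RevErba animals, which carry Rev-Erbα with an HA epitope tag, on a C57BL/6 background. They were kept for 1 week at 4 °C, a chronic cold challenge (4 libraries), or at 29 °C, which is thermoneutral for mice (4 libraries). Untagged WT C57BL/6 mice, kept for 1 week at 4 °C (2 libraries) or at 29 °C (2 libraries), went through the same pull-down with anti-HA magnetic beads and show its background. The labels say nothing of how the tag was introduced, of age, sex or hour of sampling, or of how many animals stand behind a library. The libraries held 28.7 to 37.3 M (mega) aligned reads in HA-RevErbα mice at 4 °C and 27.0 to 36.9 M at 29 °C, against 29.2 to 32.6 M in WT mice at 4 °C and 27.4 to 36.1 M at 29 °C. Every binding value below comes from 1 pool per genotype and temperature, so no difference between pools has a replicate check and no p-value was made. The pools held 63.8 M reads (HA-RevErbα, 4 °C), 60.8 M (HA-RevErbα, 29 °C), 27.1 M (WT, 4 °C) and 25.1 M (WT, 29 °C). These are 49.8%, 49.2%, 43.9% and 39.5% of the aligned reads of their libraries, and the step that left out the others is not stated in the labels or headers. Since the tissue was taken in bulk, more binding per cell and more cells with binding cannot be told apart.

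Rev-Erbα binds DNA as a monomer to a hexamer, AGGTCA, with an A/T-rich stretch before it, or as a dimer to a pair of such hexamers, and it recruits a corepressor complex with the histone deacetylase HDAC3. In other chromatin contexts it is tethered by other factors without contacting its own element. In brown fat it is known as a repressor of the uncoupling protein gene Ucp1 and of the lipogenic programme. Brown fat exposed to cold burns fatty acids and glucose for heat and, with time, also makes more fatty acids.

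Promoter sequences are shown for a few genes with a WT-level site, chosen for having or lacking the Rev-Erbα hexamer. Of the 77 genes with a WT-level site in the promoter, 58 matched the RefSeq promoter table (build GRCm38.p6), of which the 250 bases before the start site are printed for 4. The promoter of Nfil3 belongs to a shared site and stands beside them for contrast. Capitals mark AGGTCA, or TAGGTCA where a T precedes it, on either strand (TGACCT and TGACCTA on the printed strand). Elovl6, which encodes the elongase that lengthens palmitate, has 1 match, Mad2l1, a spindle checkpoint gene, has 2, the carboxylesterase gene Ces4a has 1, and Surf6, a nucleolar protein gene, has none. The sequences run 5′ to 3′ along the gene's strand and lie at chr3:129532136-129532385 (+ strand, Elovl6), chr6:66534971-66535220 (+ strand, Mad2l1), chr8:105131550-105131799 (+ strand, Ces4a), chr2:26902888-26903137 (- strand, Surf6) and chr13:52981040-52981289 (- strand, Nfil3).
Elovl6: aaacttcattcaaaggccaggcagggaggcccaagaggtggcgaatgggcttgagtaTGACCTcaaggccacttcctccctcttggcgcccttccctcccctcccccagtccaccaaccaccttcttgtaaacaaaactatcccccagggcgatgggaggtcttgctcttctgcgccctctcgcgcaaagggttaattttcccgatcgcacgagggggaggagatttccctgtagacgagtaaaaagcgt
Mad2l1: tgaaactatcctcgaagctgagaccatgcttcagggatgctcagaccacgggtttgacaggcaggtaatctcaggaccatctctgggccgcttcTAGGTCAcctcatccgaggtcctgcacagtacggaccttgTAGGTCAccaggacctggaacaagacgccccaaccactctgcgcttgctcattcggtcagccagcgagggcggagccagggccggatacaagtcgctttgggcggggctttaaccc
Ces4a: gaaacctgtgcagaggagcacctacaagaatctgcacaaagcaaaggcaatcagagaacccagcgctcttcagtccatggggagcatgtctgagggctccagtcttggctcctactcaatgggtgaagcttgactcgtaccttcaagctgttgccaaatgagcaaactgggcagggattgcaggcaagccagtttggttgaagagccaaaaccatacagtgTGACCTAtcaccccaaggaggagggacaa
Surf6: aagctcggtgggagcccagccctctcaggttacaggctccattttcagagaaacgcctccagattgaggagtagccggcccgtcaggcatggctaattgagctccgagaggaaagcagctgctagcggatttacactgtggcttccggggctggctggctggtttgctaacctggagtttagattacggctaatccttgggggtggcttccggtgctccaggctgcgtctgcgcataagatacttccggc
Nfil3: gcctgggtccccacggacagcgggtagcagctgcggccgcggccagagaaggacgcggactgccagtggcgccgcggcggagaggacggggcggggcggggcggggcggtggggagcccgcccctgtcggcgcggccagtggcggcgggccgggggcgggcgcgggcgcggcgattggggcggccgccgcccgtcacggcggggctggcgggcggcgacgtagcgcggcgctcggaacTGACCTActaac

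The matches lie at -193 to -188 from the start site in Elovl6, at -156 to -150 and -116 to -110 in Mad2l1, at -29 to -23 in Ces4a and at -12 to -6 in Nfil3. The peaks themselves are on build mm9, for which no genome was used, so their place on these promoters is known only as a distance from the start site. The authors' files centre the peaks at -260 bp (Elovl6), -267 bp (Mad2l1), -100 bp (Ces4a), -75 bp (Surf6) and 52 bp (Nfil3). If the start sites of both annotations are the same, the 200 bp windows hold 91, 84, 200, 175 and 48 of the printed bases in that order of genes. They then take in the matches of Elovl6, Ces4a and Nfil3 and leave out both matches of Mad2l1. A match of letters is no evidence of a bound site, and none in the window says nothing about binding elsewhere.

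The hexamer AGGTCA was found in the promoters of 9 of the 58 matched genes with a WT-level promoter site, or 15.5% (95% exact interval 7.35 to 27.4). The share was 18.6% of 242 matched genes with another 4 °C-only promoter site, 41.2% (24.6 to 59.3) of 34 with a shared one and 18.1% of all 27025 genes of the table, in the 300 bases from 250 before to 50 after the start. For the longer TAGGTCA, searched after the data had been seen, the shares were 5.17% (3 genes), 4.13%, 26.5% (12.9 to 44.4) and 2.97%. Both shares at WT-level promoters thus lie near those of all genes, and the intervals of these few promoters are wide. The form ANTAGGTCA was found in 1 WT-level promoter gene (1.72%) and in 0.707% of all genes. A direct repeat of AGGTCA with any 2 bases between was in none of the 58, and in 2 genes of the whole table. CACGTG, the E-box that the activators of the clock bind, was in 4 of the 58 genes (6.90%) and in 8.09% of all genes. The WT-level promoters had a median GC content of 60.7%, against 57.7% at other 4 °C-only, 53.7% at shared and 52.7% at all promoters of the table. All motifs were searched on both strands, AGGTCA counts include TAGGTCA, and no chance test of these shares was made.

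Binding is given in FPKM, the reads per kilobase of a 200 bp window and per M reads of its pool; it is no measure of expression. The values that chose the WT-level sites were a median of 1.16 FPKM in the HA-RevErbα pool at 29 °C (10th to 90th percentile, 0.50 to 1.98) against 1.60 FPKM in the WT pool at 29 °C (0.81 to 2.60). At the other 4 °C-only sites these medians were 2.31 FPKM and 1.01 FPKM. The rule took sites with a low HA-RevErbα value and a high WT value at 29 °C, and their medians lie on opposite sides of those of the other sites for that reason. In reads, the median WT-level site had 14 in the HA-RevErbα pool and 8 in the smaller WT pool.

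**Figure D1:**
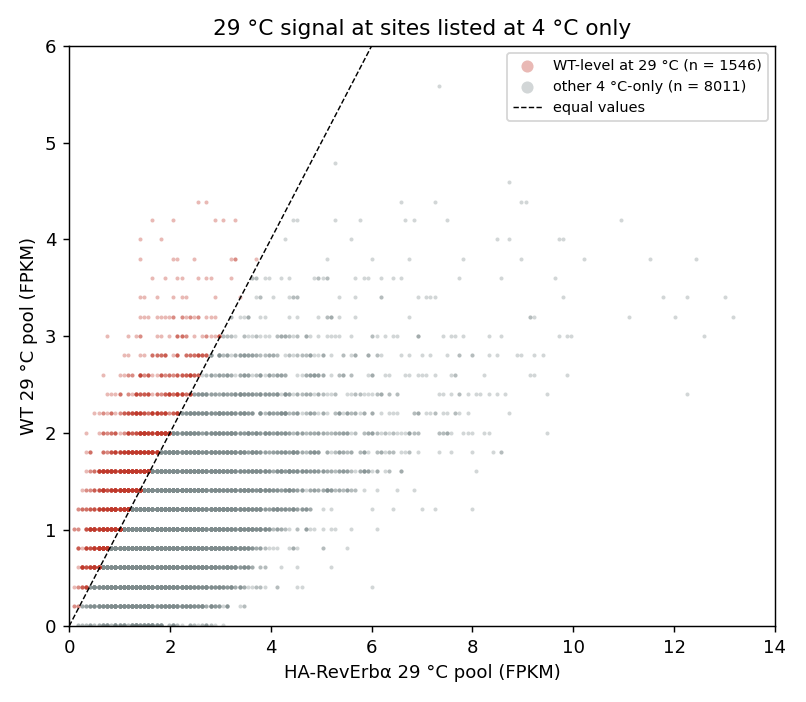
HA-RevErbα (x axis) against WT (y axis) signal at 29 °C, in FPKM, at each of the 9557 sites listed at 4 °C only, with the WT-level sites in red and the other sites in grey. Red points lie on or left of the dashed line of equal values by the rule, and both classes crowd along it below 3 FPKM, where single reads of the WT pool form rows of points.

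The label of these sites as having no 29 °C signal holds only relative to the WT pool. None of the 1546 sites was at 0 reads in the HA-RevErbα pool at 29 °C, and 37 had at most 3 reads (0.247 FPKM). The ratio of HA-RevErbα to WT at 29 °C had a median of 0.756, and its exact 95% counting interval lay below 1 at 51 of the 1546 sites (3.30%), where 0.534% of all 4 °C-only sites did. At the other 1495 the interval included 1, as it did at 5018 of the 8011 other 4 °C-only sites (62.6%). It lay above 1 at none of the WT-level sites and at 2993 other sites (37.4%), where 31.3% of all 4 °C-only sites did. These counts follow from the rule and are given as a description. These intervals hold counting error alone: reads that carry no molecular identifier may be copies of 1 molecule, and pools hide the spread between libraries.

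Set against the WT pool at 4 °C, which the rule did not use, 983 WT-level sites (63.6%) had an HA-RevErbα value at 29 °C above it and 563 (36.4%, 34.0 to 38.9) did not. Of the other 4 °C-only sites, 507 (6.33%) lay at or below the WT 4 °C value. The counting interval of this ratio lay above 1 at 52 WT-level sites (3.36%) and at 2887 other sites (36.0%), with 30.8% over all 4 °C-only sites. The HA-RevErbα value at 29 °C is the same in both comparisons, so they are not independent.

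The edge of the set shows how fine the line is. Among the 25 sites with equal values, sites with a high 4 °C signal were annotated to Prdx6 and Ppm1a, each with 1.41 FPKM in the HA-RevErbα and 1.41 FPKM in the WT pool at 29 °C. Just outside lay sites at Irf2bp2, Eif1a and Crhr1, each with 2.81 FPKM in the HA-RevErbα and 2.80 FPKM in the WT pool. Their 4 °C signals were 7.85 and 7.85 FPKM inside and 13.18, 11.38 and 9.73 FPKM outside.

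At 4 °C the WT-level sites had less signal than the other sites. Their median was 5.50 FPKM in the HA-RevErbα pool (10th to 90th percentile, 3.85 to 9.26; highest 18.05), against 6.83 FPKM at other 4 °C-only sites (highest 32.16) and 12.28 FPKM at shared sites. This rests on a median of 70 reads per site. The size of the gap depended on the background used. For sites chosen as at or below the WT signal at 4 °C, the median was 6.44 FPKM, against 6.6 FPKM for the rest. With the mean of both WT pools these medians were 5.81 FPKM and 6.68 FPKM. The 4 °C signal over WT had a median of 4.56 FPKM at WT-level sites, 5.71 FPKM at other 4 °C-only sites and 10.6 FPKM at shared sites. Since no listed site had a difference under 3 FPKM or a fold under 3.99, many sites sat near the bounds of the list: 571 of the WT-level sites (36.9%, 34.5 to 39.4) differed from WT by under 4 FPKM, against 22.1% of other 4 °C-only and 4.37% of shared sites. The fold over WT at 4 °C had a similar median in both classes, 5.85 at WT-level and 6.08 at other 4 °C-only sites, and 8.63 at shared sites.

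**Figure D2:**
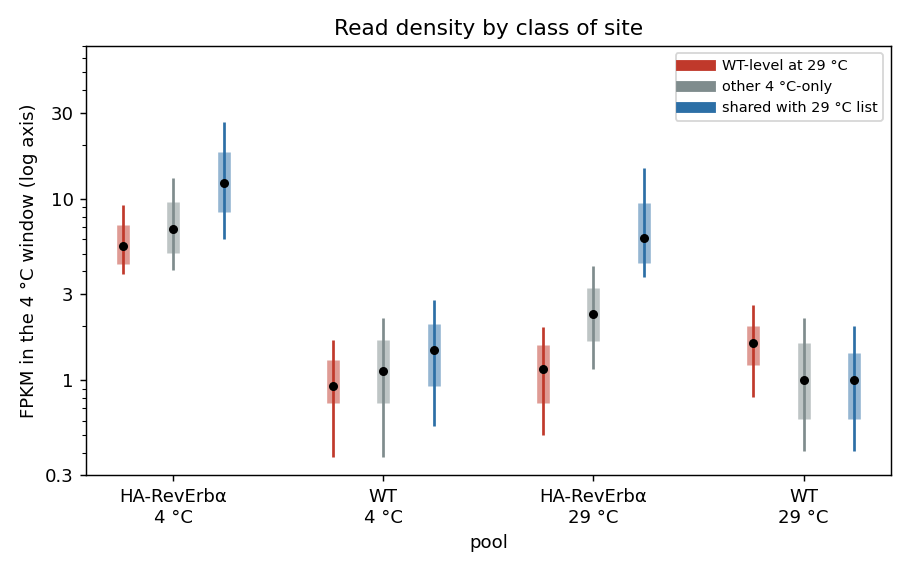
FPKM (log axis) of the 4 pools in the 4 °C windows, for WT-level, other 4 °C-only and shared sites; points are medians over sites, thick bars the 25th to 75th and thin lines the 10th to 90th percentiles. At 4 °C the medians step up from 5.50 through 6.83 to 12.28 FPKM, while in the WT pool at 29 °C the WT-level sites, chosen partly for that value, are highest at 1.60 FPKM.

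The share of WT-level sites among the 4 °C-only sites fell with the level at 4 °C. With the sites ranked by that level and cut into 10 bins of about equal size, it was 24.8% (22.2 to 27.5) in the lowest bin, with a median of 3.85 FPKM, 17.4% in the bin with a median of 6.28 FPKM and 3.14% (2.13 to 4.46) in the highest, with a median of 14.75 FPKM. It was lower in each bin than in the one before. Only 30 of the 954 sites in the highest bin were WT-level sites. The rule takes sites with a low HA-RevErbα value, and that value was not held constant across the bins. The bins therefore cannot separate the fall from the rule, and nothing further is read from it. They were not redone with the WT signal at 4 °C as the background. Across bands of the WT signal at 4 °C the share was 19.3% under 0.5 FPKM, 20.1% from 0.5 to 1, 16.2% from 1 to 1.5, 12.7% from 1.5 to 2, 6.76% from 2 to 3 and 3.80% (6 of 158 sites) from 3 to 10 FPKM.

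**Figure D3:**
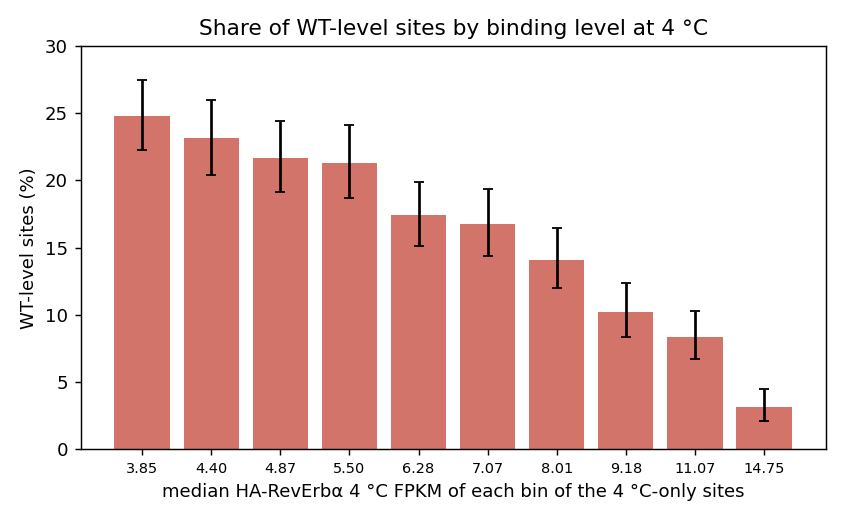
Percent of 4 °C-only sites that are WT-level sites (y axis) in 10 bins of the HA-RevErbα signal at 4 °C (x axis, median FPKM of each bin); lines are exact 95% binomial intervals. The bars decrease at each step, with 24.8% at the left end and 3.14% at the right. The HA-RevErbα value used by the rule was not held constant across the bins, so the fall is given as a description.

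HA-RevErbα signal at these sites was 5.13 times higher at 4 °C than at 29 °C in the median (10th to 90th percentile, 3.06 to 10.6), against 3.07 times at other 4 °C-only sites and 1.88 times at shared sites. The interval of this ratio lay above 1 at all 1546 WT-level sites and at 7804 of 8011 other sites, with 97.8% over all 4 °C-only sites and 95.4% over the whole 4 °C list. A ratio of 4 or more was seen at 1110 WT-level sites (71.8%), with 32% over all 4 °C-only sites and 27.4% over the whole list. The 29 °C value in this ratio chose the sites, so nothing is read from the difference between the classes. With 0.5 FPKM added to both values the median ratio was 3.80.

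The WT pools moved with the selection. WT signal at 4 °C was below WT signal at 29 °C at 1306 WT-level sites (84.5%), against 46.7% of other 4 °C-only sites. Its counting interval lay below 1 at 102 WT-level sites (6.6%) and at 84 other sites (1.05%), with 1.95% over all 4 °C-only sites. The median WT signal at 4 °C was 0.93 FPKM at WT-level sites and 1.12 FPKM at other 4 °C-only sites. Among sites of like HA-RevErbα signal at 4 °C these medians were equal: 0.75 FPKM in both classes from 3 to 5 FPKM, 1.12 from 5 to 7, 1.48 from 7 to 10 and 2.04 from 10 to 20. The part of the WT 29 °C values in the choice of individual sites was not tested.

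Most WT-level sites lay in introns (735 sites, 47.5%) or between genes (661 sites, 42.8%), as did the other 4 °C-only sites (47.7% and 44.4%). Their median distance from the annotated start site was 26.6 kb, against 27.3 kb at other 4 °C-only sites. Promoters held 77 WT-level sites, or 4.98% (3.95 to 6.19), against 3.82% (3.41 to 4.26) of other 4 °C-only and 2.75% (2.02 to 3.66) of shared sites. This difference turned round with the background used. When sites were instead chosen as at or below the WT signal at 4 °C, promoters made up 2.06% of those 1070 sites and 4.25% of the rest, and with the mean of both WT pools 4.03% and 4.00%. Over the 383 promoter sites listed at 4 °C only, mean WT signal was 1.33 FPKM at 4 °C and 1.52 FPKM at 29 °C, while over the 4556 intronic sites it was 1.21 FPKM and 1.26 FPKM. At or below both WT pools lay 13 of the promoter sites.

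WT-level sites lay farther from 29 °C peaks. Those peaks come from the HA-RevErbα pool at 29 °C, whose low values chose the sites, so these distances are not independent of the rule. The median gap to the nearest 29 °C peak was 247 kb, against 160 kb for other 4 °C-only sites. A 29 °C peak lay within 10 kb of 5.37% (4.30 to 6.61) of WT-level and 10.4% (9.77 to 11.1) of other 4 °C-only sites, and within 50 kb of 19.6% (17.6 to 21.7) and 27.7% (26.8 to 28.7). A gene with a 29 °C peak was the annotated gene of 25.5% (23.3 to 27.7) of WT-level and 32.7% (31.7 to 33.8) of other 4 °C-only sites. The lower share within 50 kb was also seen among sites of like level: 14.5% against 19.9% from 3 to 5 FPKM at 4 °C, 21.7% against 25.6% from 5 to 7, 24.3% against 28.4% from 7 to 10, and 25.5% against 38.1% from 10 to 20. The intervals of the 2 classes overlapped in the 5 to 7 and 7 to 10 bands and were apart in the lowest and the highest. They treat sites as independent, yet 40.1% of all 4 °C-only sites had another 4 °C peak within 10 kb. Such neighbours can lie near the same 29 °C peak, so intervals that are apart are no test. Without the sites within 1 kb of a 29 °C peak, the shares within 50 kb were 18.9% and 26.6%. With the WT pool at 4 °C as the background they were 20.4% and 27.2%.

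**Figure D4:**
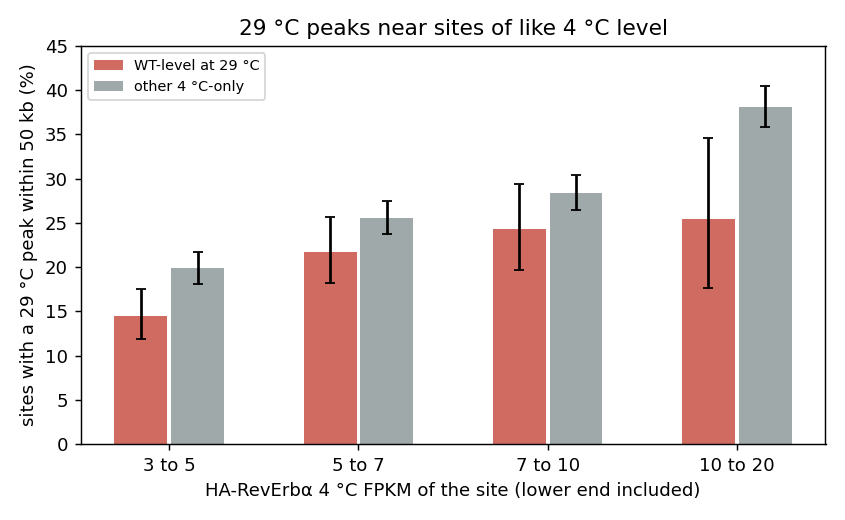
Percent of WT-level (red) and other 4 °C-only sites (grey) with a 29 °C peak within 50 kb (y axis), in 4 bands of HA-RevErbα FPKM at 4 °C (x axis); lines are exact 95% binomial intervals. The red bar is lower in each band, by the most in the 10 to 20 FPKM band (25.5% against 38.1%).

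Other 4 °C peaks were also somewhat farther away. The median gap to the nearest was 18.9 kb for WT-level sites, 16.5 kb for other 4 °C-only sites and 12.3 kb for shared sites. Of the 557 WT-level sites with another 4 °C peak within 10 kb, the nearest was a WT-level site for 16.3% (13.4 to 19.7) and a shared site for 10.1% (7.68 to 12.9). For the 3275 such other 4 °C-only sites the shares were 12.5% (11.4 to 13.7) and 16.4% (15.1 to 17.7).

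The 1546 sites were annotated to 1338 genes. Of these, 802 also had another 4 °C-only site, 269 also had a shared site and 499 (37.3%) had WT-level sites only. A single WT-level site was found at 1176 genes, 2 at 128, 3 at 23 and 4 or 5 at 11. Trib1, a pseudokinase gene whose protein directs C/EBPα to degradation, had 5 of its 10 sites in the set, with 5.81 to 14.60 FPKM in the HA-RevErbα pool at 4 °C and 0.67 to 2.07 FPKM at 29 °C, against 0.93 to 3.14 FPKM and 0.81 to 3.20 FPKM in the WT pools. They spanned 197 kb. All 4 sites of Mir6715, a microRNA gene, were WT-level, within 16.2 kb, with 4.71 to 18.05 FPKM in the HA-RevErbα pool at 4 °C. So were all 4 of Fam110c within 9.35 kb, which had 4.01 to 8.48 FPKM. The other genes with the most WT-level sites were Mir7219 (4 of 6 sites), Pappa (4 of 5), which encodes a protease that frees insulin-like growth factors, and Mir3075 (4 of 5). Sites of 1 gene are not independent of each other, and the annotated gene is only the nearest start site.

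The most strongly bound WT-level site was annotated to the promoter of Mir6715 (chromosome 19, 55267091 to 55267291, mm9, 23 bp from the annotated start of this microRNA gene). It gave 18.05 FPKM in the HA-RevErbα pool at 4 °C and 2.15 FPKM at 29 °C, against 1.30 FPKM and 3.0 FPKM in the WT pools at 4 °C and 29 °C. The 4 °C to 29 °C ratio was 8.43 (counting interval 5.61 to 13.2). The promoter of Ppp1r15b, which encodes the constitutive eIF2α phosphatase subunit, gave 17.81 FPKM at 4 °C and 2.72 FPKM at 29 °C in the HA-RevErbα pools, but also 4.43 FPKM and 4.39 FPKM in the WT pools. Its WT values are the highest of the sites named here. A second site of Mir6715 ranked with these, at 15.77 FPKM and 2.48 FPKM in the HA-RevErbα pools, against 2.41 FPKM and 2.60 FPKM in the WT pools. A site 64.3 kb upstream of Mir6995, in an intron of another transcript, had values similar to those of Ppp1r15b. It gave 17.97 FPKM and 3.38 FPKM in the HA-RevErbα pools and 4.06 FPKM and 3.40 FPKM in the WT pools.

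Among the 12 strongest sites, counting 1 per gene, the largest 4 °C to 29 °C ratio was at Pcca, which encodes a subunit of propionyl-CoA carboxylase. This intronic site (chromosome 14, 122947817 to 122948017) gave 14.67 FPKM at 4 °C and 0.67 FPKM at 29 °C in the HA-RevErbα pools, against 1.85 FPKM and 1.60 FPKM in the WT pools. With 187 reads at 4 °C and 8 at 29 °C, its ratio was 22.3 (11.1 to 52.4). A site 33.1 kb upstream of Pik3ap1, an adaptor of phosphoinositide signalling, gave 17.58 FPKM and 1.24 FPKM, a ratio of 14.2 (8.45 to 25.9). The WT pools gave 1.85 FPKM and 2.20 FPKM there. For the other 7 of these 12 genes, Slc6a6 (taurine transporter), A330074K22Rik, Zmynd8, Trib1, Por (electron donor of microsomal P450 enzymes), Ntng2 and Ank3, the HA-RevErbα pools gave 14.12 to 16.63 FPKM at 4 °C and 1.82 to 3.30 FPKM at 29 °C. A site at B930025P03Rik had the same 4 °C value as that at Ank3, 14.12 FPKM.

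Fatty acid synthesis genes had WT-level sites at 6 of 22 listed genes. Of the 37 sites of these genes listed at 4 °C only, 7 were WT-level, or 18.9% (7.96 to 35.2), near the 16.2% of all 4 °C-only sites. Elovl6 had a WT-level site in its promoter (chromosome 3, 129234944 to 129235144) with 10.91 FPKM at 4 °C and 1.65 FPKM at 29 °C in the HA-RevErbα pools, against 0.93 FPKM and 2.20 FPKM in the WT pools. The ratio was 6.63 (4.13 to 11.2). A second WT-level site, in an intron of Elovl6 59.6 kb from the start, gave 9.89 FPKM and 1.82 FPKM in the HA-RevErbα pools, against 1.85 FPKM and 4.00 FPKM in the WT pools. Here the counting interval of HA-RevErbα over WT at 29 °C lay below 1, in values that also chose the site. The third site of the gene, not in the set, was weaker, with 4.79 FPKM and 1.74 FPKM.

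The promoter of Pcx, pyruvate carboxylase, gave 6.75 FPKM at 4 °C and 1.49 FPKM at 29 °C in the HA-RevErbα pools, against 1.30 FPKM and 1.80 FPKM in the WT pools. Sites of Elovl5, an elongase of polyunsaturated fatty acids, and of the desaturase gene Scd1 gave 7.69 FPKM and 6.68 FPKM in the HA-RevErbα pool at 4 °C, against 1.57 FPKM and 0.67 FPKM in that at 29 °C. Scd1 also had 2 shared and 3 other 4 °C-only sites, so only 1 of its 6 sites was at WT level at 29 °C. Acly, which makes acetyl-CoA from citrate, and Me1, which supplies NADPH, had weak WT-level sites of 3.70 FPKM and 4.24 FPKM at 4 °C. None of the 14 cholesterol synthesis genes had a WT-level site, out of 11 sites listed at 4 °C only.

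Thermogenesis genes had WT-level sites at 6 of 28 listed genes (7 of 32 sites, 21.9%, 9.28 to 40.0). Adrb3, the β3-adrenergic receptor through which sympathetic nerves switch on heat production, had 1 site in the 4 °C list, and it was WT-level. It lay 10.1 kb upstream (chromosome 8, 28350057 to 28350257) and gave 9.42 FPKM at 4 °C and 0.75 FPKM at 29 °C in the HA-RevErbα pools, against 1.67 FPKM and 0.81 FPKM in the WT pools. With 120 and 9 reads the ratio was 12.7 (6.48 to 28.5), and the nearest 29 °C peak was 1847 kb away.

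Ucp1, whose protein uncouples respiration to make heat, showed the other pattern. Its WT-level site 13.3 kb upstream gave 8.32 FPKM at 4 °C and 1.16 FPKM at 29 °C in the HA-RevErbα pools, against 1.67 FPKM and 1.21 FPKM in the WT pools. It was the weakest of 5 sites upstream of the gene. The shared sites at -5796 bp and -4758 bp gave 20.55 and 17.73 FPKM in the HA-RevErbα pool at 4 °C and 11.44 and 7.41 FPKM at 29 °C. Dio2, the deiodinase that activates thyroid hormone in brown fat, had 2 WT-level and 2 other 4 °C-only sites and no shared one. The stronger WT-level site, 164 kb from the start, gave 8.24 FPKM and 0.67 FPKM in the HA-RevErbα pools, against 1.85 FPKM and 1.41 FPKM in the WT pools. The glycerol kinase gene Gk gave 5.03 FPKM and 0.50 FPKM in the HA-RevErbα pools.

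**Figure D5:**
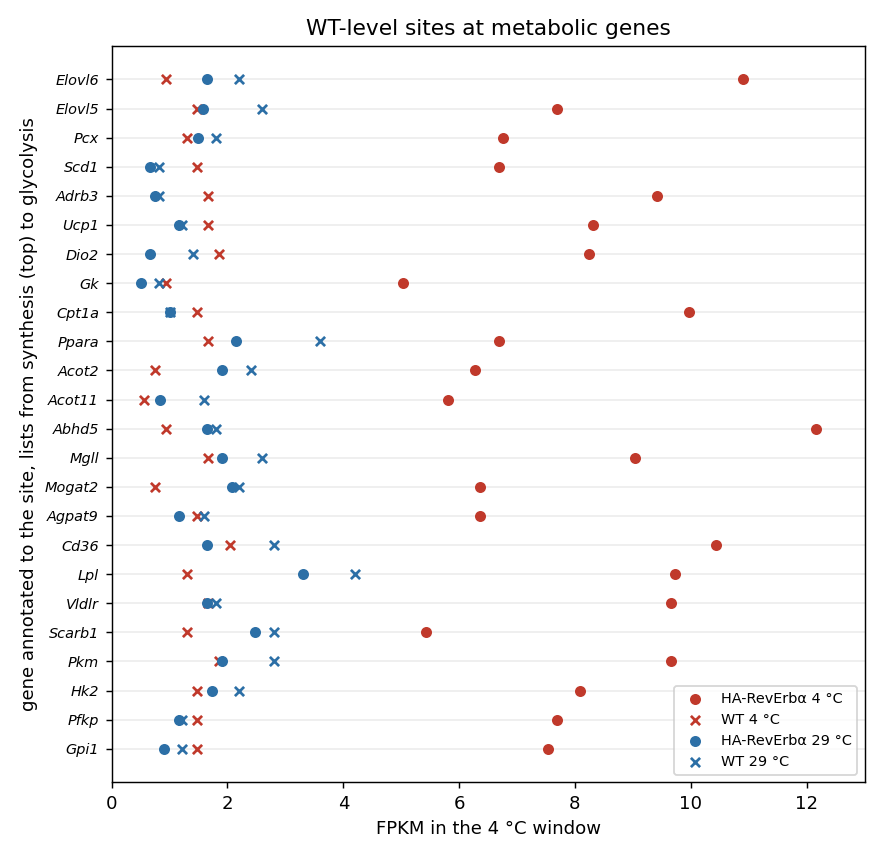
FPKM (x axis) of the 4 pools at named WT-level sites of metabolic genes (y axis), grouped from fatty acid synthesis through thermogenesis, oxidation, triglycerides and lipid uptake to glycolysis; circles are HA-RevErbα, crosses WT, red 4 °C and blue 29 °C, each 1 pool. The red circles stand apart at 5.03 to 12.16 FPKM, where no listed site had a 4 °C difference to WT under 3 FPKM. By the rule, each blue circle lies at or left of its blue cross.

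Fatty acid oxidation had WT-level sites at 4 of 20 listed genes, and 5 of 14 sites listed at 4 °C only were WT-level (35.7%, 12.8 to 64.9). Cpt1a, the gate of fatty acids into mitochondria, had 2 in its first intron, the stronger with 9.97 FPKM at 4 °C and 1.0 FPKM at 29 °C in the HA-RevErbα pools, against 1.48 FPKM and 1.01 FPKM in the WT pools. The promoter of Ppara, a nuclear receptor that activates oxidation genes, gave 6.68 FPKM and 2.15 FPKM in the HA-RevErbα pools, against 1.67 FPKM and 3.60 FPKM in the WT pools. Its WT signal at 29 °C was thus above its HA-RevErbα signal, within counting error. The only sites of the acyl-CoA thioesterase genes Acot2 and Acot11 were WT-level, with 6.28 FPKM and 5.81 FPKM in the HA-RevErbα pool at 4 °C. None of the 20 genes of the TCA cycle and respiratory chain had a WT-level site, out of 5 sites listed at 4 °C only.

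Triglyceride genes had WT-level sites at 6 of 20 listed genes (17.1% of 35 sites). The strongest, in the first intron of Abhd5, the co-activator of the lipase ATGL, gave 12.16 FPKM at 4 °C and 1.65 FPKM at 29 °C in the HA-RevErbα pools, against 0.93 FPKM and 1.80 FPKM in the WT pools. The ratio was 7.39 (4.62 to 12.4). Another 4 °C-only site in the same intron gave 6.44 FPKM and 1.74 FPKM in the HA-RevErbα pools but only 1.01 FPKM in the WT pool at 29 °C, which kept it out of the set. Mgll, the monoglyceride lipase gene, and the acyltransferase genes Mogat2 and Agpat9 gave 6.36 to 9.03 FPKM in the HA-RevErbα pool at 4 °C and 1.16 to 2.07 FPKM at 29 °C.

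Lipid uptake genes had WT-level sites at 4 of 16 listed genes (14.8% of 27 sites), and none of these genes had WT-level sites only. Cd36, a fatty acid translocase, had a WT-level site 0.906 kb into the gene with 10.44 FPKM at 4 °C and 1.65 FPKM at 29 °C in the HA-RevErbα pools, against 2.04 FPKM and 2.80 FPKM in the WT pools. The lipoprotein lipase gene Lpl gave 9.73 FPKM and 3.30 FPKM in the HA-RevErbα pools, against 1.30 FPKM and 4.20 FPKM in the WT pools. Its 29 °C signals are among the highest of the set in both pools, on 40 and 21 reads. Vldlr and Scarb1, which encode lipoprotein receptors, gave 9.66 FPKM and 5.42 FPKM in the HA-RevErbα pool at 4 °C.

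Glycolysis genes had WT-level sites at 5 of 23 listed genes (16.7% of 36 sites). Introns of Pkm (pyruvate kinase), Hk2 (hexokinase), Pfkp (phosphofructokinase) and Gpi1 (glucose phosphate isomerase) gave 7.54 to 9.66 FPKM in the HA-RevErbα pool at 4 °C and 0.91 to 1.90 FPKM at 29 °C. The WT pools gave 1.48 to 1.85 FPKM at 4 °C and 1.21 to 2.80 FPKM at 29 °C at these 4 sites. The ratios ran from 4.68 at Hk2 to 8.32 at Gpi1, with overlapping counting intervals. The nearest 29 °C peak lay only 0.367 kb from the Pkm site and 5.83 kb from that of Hk2. It lay 594 kb from the Pfkp site and 945 kb from that of Gpi1.

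Core clock genes had WT-level sites at 4 of 22 listed genes (11.4% of 44 sites, 3.79 to 24.6). Nfil3, a repressor of D-box genes, had 2 WT-level sites, of 6.83 FPKM and 6.13 FPKM at 4 °C, among 8 sites. Its promoter site, shown above, gave 28.32 FPKM at 4 °C and 13.17 FPKM at 29 °C in the HA-RevErbα pools. Hlf, an activator of the same D-box genes, and Rora gave 5.81 FPKM and 4.56 FPKM at 4 °C.

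Transcription factors of the adipocyte had WT-level sites at 8 of 20 listed genes (20.3% of 69 sites, 11.6 to 31.7). The strongest at Nfia, a factor of the brown adipocyte programme, lay in an intron 82.0 kb from the start. It gave 9.73 FPKM at 4 °C and 1.24 FPKM at 29 °C in the HA-RevErbα pools, against 2.22 FPKM and 2.40 FPKM in the WT pools. Cebpb and Nfib had sites of 9.42 FPKM and 6.13 FPKM at 4 °C, and Klf4 had 4 WT-level sites among 17. Genes of Rev-Erbα corepressors and partners had 7 WT-level sites among 30 (23.3%, 9.93 to 42.3). One lay 124 kb upstream of Tbl1xr1, a subunit gene of such complexes. It gave 5.89 FPKM and 0.91 FPKM in the HA-RevErbα pools, against 0.19 FPKM and 1.80 FPKM in the WT pools.

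Adrenergic and cAMP signalling genes had 3 WT-level sites among 41 (7.32%, 1.54 to 19.9). They were the Adrb3 site described above, one at Pde4b, a cAMP phosphodiesterase, with 6.44 FPKM at 4 °C, and one at Gnai1, an inhibitory G protein, with 4.24 FPKM. The Pde4b site lay 137 kb upstream of the annotated start, in the first intron of another annotated transcript. Growth factor and insulin genes had WT-level sites at 6 of 20 listed genes (16.7% of 42 sites), led by Vegfa, the main signal for new vessels, with 9.97 FPKM and 1.90 FPKM in the HA-RevErbα pools. Fgf9, Irs2 and Insr gave 5.50 to 7.22 FPKM at 4 °C. The interval of each gene list's share takes in the 16.2% of all 4 °C-only sites.

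Genes that mark other cells of the tissue had 7 WT-level sites among 52 sites listed at 4 °C only (13.5%, 5.59 to 25.8), near the 16.2% of all 4 °C-only sites. They lay at 1 of 11 macrophage markers (Mertk), 2 of 11 endothelial markers (Eng and Pecam1), 1 of 12 skeletal muscle markers (Myh4), 1 of 10 white adipocyte markers (Nnat) and none of 9 smooth muscle or 10 nerve markers. Of the brown adipocyte markers, 3 of 10 (Ucp1, Dio2 and Cidea) had one (4 of 15 sites, 26.7%, 7.79 to 55.1). All 11 endothelial and 6 of 10 brown adipocyte markers had some site in the 4 °C list. A site near a gene does not show that the gene's cell type was bound, so these counts do not check the labelled tissue.

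The counting interval of HA-RevErbα over WT at 29 °C lay below 1 at 51 sites. Their median was 4.95 FPKM in the HA-RevErbα pool at 4 °C. They are 0.534% of the 4 °C-only sites, and the values in this ratio are those that chose the set. The intervals were not adjusted for the number of sites. The strongest lay 12.7 kb upstream of Mir6397, in an intron of another transcript. It gave 12.95 FPKM at 4 °C and 0.75 FPKM at 29 °C in the HA-RevErbα pools, against 2.22 FPKM and 2.40 FPKM in the WT pools. The widest gap to WT was at the promoter of Surf6 (chromosome 2, 26758382 to 26758582), printed above, with 9.50 FPKM and 1.41 FPKM in the HA-RevErbα pools, against 1.30 FPKM and 4.00 FPKM in the WT pools. The ratio of HA-RevErbα to WT there at 29 °C was 0.351 (0.172 to 0.705), on 17 and 20 reads. The promoter of Tmem254b followed, with 1.65 FPKM in the HA-RevErbα and 4.20 FPKM in the WT pool at 29 °C. The other strong members of this group lay at B3galt2, Rin2, the Elovl6 intron and Klhl26.

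Lowest of all at 29 °C were sites near Mllt3, Gm8179, Sall1 and Zfp952, each with 1 read (0.09 FPKM) in the HA-RevErbα pool. At 4 °C they gave 7.07, 5.42, 5.26 and 5.11 FPKM, on 65 to 90 reads. The ratio at Mllt3 was 85.8, with a counting interval of 15.0 to 3427. In the WT pool at 29 °C these windows had 1, 5, 2 and 1 reads, so at 3 of them the comparison that put them in the set rested on 1 or 2 WT reads.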

How the data were processed

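Chromatin immunoprecipitation DNA of mouse brown adipose tissue was sequenced in 12 libraries, grouped by the genotype and treatment in the labels. The submitters' processing notes name Bowtie2 2.1.0, HOMER 4.10 and build mm9 but not which did what, and no source here states the peak-calling settings. Per the file headers, the authors pooled libraries and deposited 1 peak list per temperature with FPKM of 4 pools, a peak score, the differences to WT and the nearest gene. Each FPKM deposited by the authors, less the 0.01 they added, is a whole multiple of the value of 1 read (100% of values within 0.01 FPKM), which gave reads per window and per pool. The score deposited by the authors equals reads per 10 M (mega) reads and was used only as a description. Aligner logs deposited by the authors gave library depths.

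Computed here, with Python 3.11.15, numpy 2.4.6, pandas 2.3.3 and scipy 1.17.1, were overlaps (1 bp), ratios with exact Clopper-Pearson 95% intervals, shares and motif counts; the steps were tested on simulated data. The count of 3 reads serves as floor, 0.235 FPKM (4 °C) and 0.247 FPKM (29 °C) in the HA-RevErbα pools and 0.553 FPKM and 0.598 FPKM in the WT pools. All 1338 gene IDs of WT-level sites matched the RefSeq gene table (GRCm38.p6), used for names only. Promoter sequence came from a separate RefSeq promoter table of that build, which is not complete and holds 58 of the 77 genes with a WT-level promoter site. Coordinates on mm9 are as in the files, which do not state their counting origin. Members and the 20 gene lists were chosen with earlier results of these data known. Named were the 12 strongest members (1 site per gene), the 10 strongest in promoters, up to 4 per list, the genes with the most members, and those at the edges of the rule; the other sites of those genes, the second Mir6715 site, Mad2l1, Ces4a, Acly and Me1 were named after their values were seen. No test across sites was made, since sites of 1 pool are not replicates. Some sites that this rule takes are not reported here.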

Additional observations from a re-analysis of the deposited data

How the results depend on the processing

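Requiring a 4 °C difference of 5 FPKM left 625 sites (11.3% of 4 °C-only sites), with medians of 7.69 FPKM at 4 °C and 5.63 for the ratio, 52.2% in introns, 38.4% between genes, 28.8% at a gene with a 29 °C peak and 8.16% within 10 kb of one. With the WT 4 °C pool as background the share was 11.2%, the medians 6.44 FPKM and 6.62, promoters 2.06% and 29 °C peaks within 10 kb 6.64%. With the mean of both WT pools they were 12.2%, 5.81 FPKM and 6.44. At or below both WT pools, chosen after seeing the data, were 563 sites (5.89%), with 5.97 FPKM, a ratio of 7.63 and 2.31% in promoters. The 51 sites with a counting interval of HA-RevErbα over WT at 29 °C below 1 (0.534%) had 4.95 FPKM and a ratio of 7.90. Of these, 9.80% lay in promoters, 35.3% between genes, 19.6% at a gene with a 29 °C peak and 1.96% within 10 kb of one. Taking every site whose interval reached 1 gave 6564 sites (68.7%), with 6.13 FPKM, a ratio of 3.72, 29.6% and 7.72% for the last pair. With at least 5 WT reads at 29 °C the share was 21.8%, the medians 5.73 FPKM and 4.82. A pseudocount of 0.5 FPKM gave a ratio of 3.80. The cause of these shifts was not tested.

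In 52 other values, under these and the remaining alternatives (scaling the WT pools, leaving out sites within 1 kb of a 29 °C peak or on chromosome X), the shift was within counting error or within 1.5 times. They include the numbers of sites, 1070 with the WT 4 °C pool and 1167 with the mean of both WT pools, against 1546. The shares of these sites among the 4 °C-only sites are listed above as shifts. The lower share near 29 °C peaks kept its direction in each alternative run, and that of promoters did not. Each run also used the HA-RevErbα value at 29 °C, from the pool that gave those peaks. The constant direction is therefore no independent support. The lower HA-RevErbα median at 4 °C also kept its direction. Its gap to the rest was smallest with the WT 4 °C pool as background (6.44 FPKM against 6.6 FPKM). No paired analysis was possible because every binding value is a pool, though WT replicates share the numbers 1 and 2; leaving out single libraries was not possible for the same reason. A median of 8 WT reads per site at 29 °C limits the choice of single sites.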

Other observations

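Gene type, repeats and chromosome were also counted for WT-level and other 4 °C-only sites, without a test. The nearest gene was protein-coding for 84.4% of WT-level and 83.7% of other 4 °C-only sites, and a microRNA gene for 4.92% (3.89 to 6.11) and 3.72% (3.32 to 4.16). Site centres lay in repeats at 15.0% and 13.4%, and in DNA transposons at 0.776% (0.402 to 1.35) and 1.51% (1.25 to 1.80). CpG islands held the centres of 12 WT-level sites (0.776%) and 41 other sites (0.512%). Of the intronic sites, 34.3% and 36.4% lay in the first intron. On chromosome X were 18 WT-level sites (1.16%) and 112 other sites (1.40%).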
